A study of Homo sapiens with 18 samples.

Results

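Copper enters human cells mainly through SLC31A1 (CTR1), is handed to its target enzymes by small chaperone proteins such as ATOX1, and leaves through the P-type ATPases ATP7A and ATP7B. Cisplatin, a platinum drug that crosslinks DNA, binds several of these proteins, and their levels have been studied as possible determinants of how much platinum a cell takes up and keeps. Members of the ABCC family, also called multidrug resistance-associated proteins, pump glutathione conjugates and other organic anions out of the cell.

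The genes described here were SLC31A1, SLC31A2, ATOX1, COX17, ATP7A, ATP7B, ABCC1, ABCC3, ABCC4 and ABCC5. Their members on the array were the probe sets whose only gene symbol in the platform annotation was one of these 10. The rule gave 12 of the 22283 probe sets, for 9 of the 10 genes. The probe set that lists COX17, a mitochondrial copper chaperone, also lists another gene, so no value is given for it. The names come from the platform annotation alone, and the rule uses no measured value.

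The RNA came from MSTO-211H, a cell line established from a human mesothelioma, in a study of the joint action of the anti-inflammatory drug piroxicam and cisplatin. All groups are of this 1 line and differ in drug and time alone. Untreated cells were compared with cells given piroxicam at 760 µM (P), cisplatin at 4.5 µg/mL (C) or the pair at these doses (P/C), all harvested after 8 h or 24 h. Each of the 18 HGU133A arrays carried the RNA of 1 sample, with 2 arrays per group at 8 h and, at 24 h, 2 for untreated cells, 3 for P, 3 for C and 2 for P/C. The paper calls the replicates biological, and the labels do not say what a replicate number shares. The deposited values are log2 signals summarised by GCRMA, and every level and difference below is on that log2 scale. Levels of different probe sets were not set against each other, because probe sets differ in how well they bind.

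The label of the cells was checked against marker genes. Of 12 mesothelial marker genes, CALB2, KRT8, KRT18, VIM and, by 1 of its probe sets, WT1 stood above array background on all 18 arrays, while MSLN, KRT5 and KRT19 did so on none. The best probe set of KRT7 exceeded it on 4 arrays, and those of PDPN, THBD and UPK3B on 1 array each. CALB2 was dim (3.02 to 3.97). The markers thus bear out the label in part. Of the markers of other cells, the probe sets of PTPRC, CD14, HBB (a haemoglobin gene), CDH5 and VWF stayed between 1.20 and 2.46 and exceeded it on no array. The T cell marker CD3D (2.42 to 2.94) exceeded it on 9 arrays and 1 of 3 probe sets of the endothelial marker PECAM1 (2.60 to 3.07) on 16. Their part in the results was not tested. At 24 h 5 arrays lay nearer to an array of another group than to any of their own. Over the 3057 tested probe sets, C replicate 1 differed from untreated replicate 1 by a root mean square of 0.424 and from the other C arrays by 0.591 and 0.627, while the 2 untreated arrays differed by 0.449. P/C replicate 1 differed from C replicate 3 by 0.343 and from P/C replicate 3 by 0.661. C replicate 3 differed from C replicate 2 by 0.362, and P/C replicate 3 differed from P replicate 1 by 0.386. Values of SLC31A1, ATOX1 and ABCC4 at 24 h are therefore also given with arrays left out. As RNA of whole cultures was measured, fewer cells with a transcript and less of it per cell cannot be told apart.

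The first question was which of the transcripts were measured at all. Array background was read from 66 probe sets of genes that mesothelial cells are not known to use (olfactory and taste receptors, keratin-associated proteins and opsins). The 95th percentile of their signals on an array was taken as its limit, which lay between 2.50 and 2.84 on the 18 arrays. By this limit 5 of the 12 probe sets stood above background on every array of all 8 groups: those of SLC31A1, ATOX1 and ABCC4 and both of ABCC1. Over all probe sets on the arrays, 42.5% exceeded the limit on every array. Another 3 of the 12 exceeded it on no array. With the 99th percentile as limit (3.01 to 3.67), 4 of the 12 remained above in all groups, as 202805_s_at of ABCC1 missed it on 1 array. Of the 12, ATOX1 was the 1 whose signal was at least 100 (6.64 on the log2 scale) on all 18 arrays, which 11.6% of all probe sets reached.

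SLC31A1 (203971_at), the high-affinity copper importer, had signals between 6.12 and 7.15 and exceeded the background limit on all 18 arrays, with a signal of at least 100 on 13. The remaining importer, SLC31A2 (204204_at), a low-affinity relative found on endosomes and lysosomes, stayed between 2.18 and 2.63 and was below the limit on every array. Among the chaperones, ATOX1 (203454_s_at) lay between 7.03 and 8.15. Both copper ATPases were dim. ATP7B (204624_at), which loads copper onto ceruloplasmin in the liver and exports it into bile, lay between 1.78 and 2.24 and was above the limit on none of the arrays. ATP7A (205197_s_at), the ATPase that serves most tissues, lay between 2.55 and 3.17, above the 95th percentile on 16 arrays and above the 99th on none. By the 95th percentile it stood above background in 7 of the 8 groups, all but P at 24 h. Its second probe set (205198_s_at) lay between 1.87 and 2.64 and was above the limit on 2 arrays. Whether MSTO-211H cells make the ATP7B transcript at a low level was not detectable at this signal. For ATP7A the answer changed with the limit and with the probe set. A probe set of the endothelial marker PECAM1 also exceeded the 95th percentile on 16 arrays, so signals this near to it are not read as presence.

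The exporters ranged from measured to unmeasured, with ABCC5 between. ABCC4 (203196_at), which carries cyclic nucleotides and prostaglandins out of cells, ranged from 5.78 to 7.59 and exceeded a signal of 100 on 14 arrays. ABCC1 (202804_at), which exports glutathione conjugates, ranged from 5.35 to 7.24 and exceeded a signal of 100 on 4 arrays. Its second probe set (202805_s_at) ranged from 3.46 to 4.73 and was above the limit on all 18 arrays. ABCC5 (209380_s_at), a nucleotide exporter, sat near the limit. It ranged from 2.63 to 3.36, above the 95th percentile on 16 arrays and above the 99th on 3. By the 95th percentile it stood above background in 6 of the 8 groups, all but P and C at 24 h. ABCC3 (208161_s_at), a carrier of bile salts and glucuronides, ranged from 1.87 to 2.72 and was above the limit on 1 array, P 24 h replicate 3. Its second probe set (209641_s_at) ranged from 1.90 to 2.27 and was above the limit on none.

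**Figure D1:**
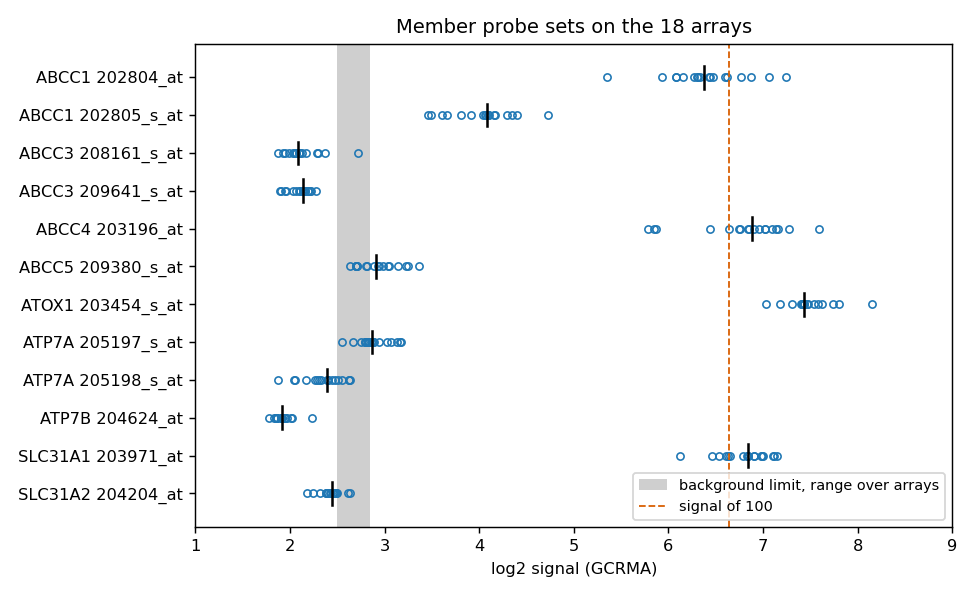
Log2 signal of each of the 12 probe sets on the 18 arrays (circles), with the median as a black line. The grey band is the range of the array background limits (2.50 to 2.84) and the dashed line a signal of 100. SLC31A1, ATOX1, ABCC4 and both probe sets of ABCC1 lie right of the band, the medians of ATP7A (205197_s_at) and ABCC5 lie just beyond its right edge, and those of the other 5 lie left of it.

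The second question was whether piroxicam, cisplatin or both shifted these transcripts. None of the 12 probe sets was called in any of the 6 comparisons with untreated cells, where a call needed an adjusted p of at most 0.05 in limma and an absolute log2 difference of at least 1. The largest of these 72 differences was that of ABCC4, whose level was lower by 0.78 with C at 24 h. The smallest adjusted p in limma was that of SLC31A1 with P/C at 24 h, at 0.181. Unadjusted, 6 of the 72 tests by limma had a p under 0.05. Over all probe sets this share was 6.04% with P, 1.96% with C and 6.61% with P/C at 8 h, and 18.3%, 8.24% and 14.7% at 24 h. Those shares are of the fit of all probe sets. In that fit SLC31A1 with P/C at 24 h also had an unadjusted p under 0.05 (0.0390 in limma). The members' 6 of 72 lies among the shares and is no result about them. A p over the threshold does not show that a level stayed the same, so intervals are given for the measured genes.

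How often any transcript was called sets the scale for these counts. The study's filter kept the 3057 probe sets whose interquartile range over the arrays reached 0.25 and whose signal reached 100 on 25% of the arrays or more. ABCC4 and SLC31A1 passed it and were read from the fit of the filtered probe sets. The other 10 did not and were read from the fit of all 22215 probe sets that are no controls. At 8 h, P called 0.491% of the filtered and 0.0495% of all probe sets, P/C called 0.622% and 0.09%, and C called 0% of either. At 24 h, P called 14.6% and 3.52%, P/C called 6.87% and 1.11%, and C called 0% and 0.0045%. Against shares of at most 3.52% over all probe sets, a count of 0 of 12 is no result about these genes. ATOX1 had a signal of at least 100 on every array and missed the filter because its interquartile range was 0.16, and 202804_at of ABCC1 missed it because a signal of 100 was reached on 4 of the 18 arrays.

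At 8 h, the 12 probe sets had a median log2 difference of 0.08 with P, -0.01 with C and -0.07 with P/C. Over all filtered probe sets the median was -0.03, 0.03 and -0.05. At 24 h the members' median was 0.04 with P, -0.10 with C and -0.05 with P/C, against -0.22, -0.10 and -0.12 over the filtered and 0.03, 0.01 and 0.00079 over all probe sets. Over the 5 probe sets above background on every array, the median at 24 h was 0.08 with P, -0.14 with C and -0.08 with P/C. The members' arrays did not overlap those of untreated cells for 4 probe sets with P, 4 with C and 5 with P/C at 8 h, and for 2, 3 and 6 at 24 h. Over all probe sets these shares were 38.2%, 30.9% and 32.6% at 8 h and 34.2%, 22.4% and 41.4% at 24 h. The members' counts of 2 to 6 of 12 lie around those shares.

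**Figure D2:**
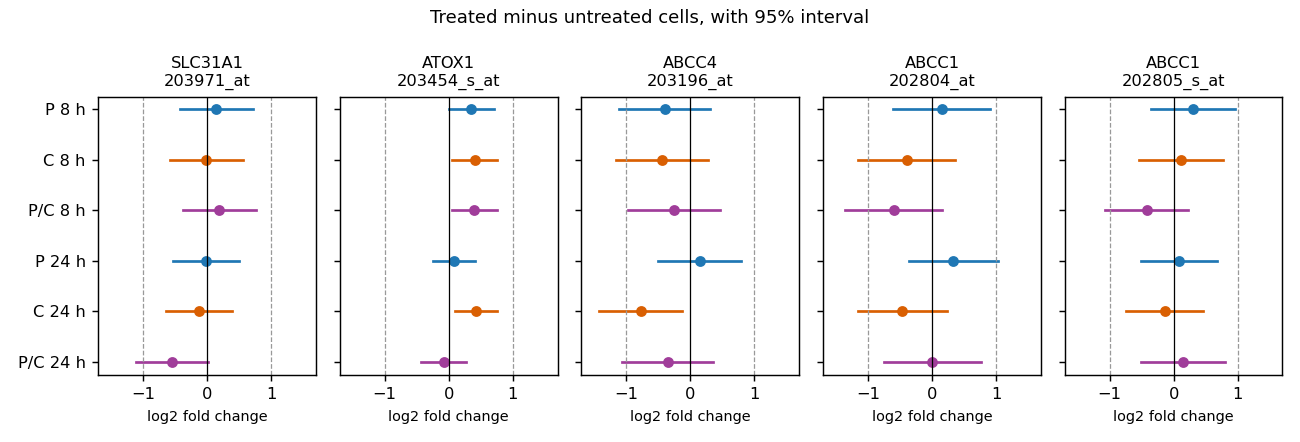
Log2 differences of treated from untreated cells (points) with 95% confidence intervals from limma (lines) for the 5 probe sets above background on every array, with dashed lines at the call limits of 1 and -1. The intervals of ATOX1 with C and P/C at 8 h and with C at 24 h, and of ABCC4 with C at 24 h, leave out 0, and no estimate reaches either limit.

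For the importer SLC31A1, the 8 h signals were 6.90 and 6.65 in untreated cells, 6.84 and 7.00 with P, 6.99 and 6.54 with C, and 6.79 and 7.15 with P/C. All treated pairs overlapped the untreated pair, and the log2 differences were 0.14 with P, -0.01 with C and 0.19 with P/C. At 24 h the signals were 6.84 and 6.98 in untreated cells, 6.46, 7.10 and 7.12 with P, 6.90, 6.83 and 6.63 with C, and 6.12 and 6.61 with P/C. Both P/C arrays lay below both untreated arrays and below all C arrays, and 1 P array fell between them. The log2 difference of P/C from untreated cells was -0.55 (SE 0.27, 95% interval -1.12 to 0.017, limma adjusted p = 0.181), while P and C alone differed from untreated cells by -0.02 and -0.12.

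The size of the SLC31A1 difference with P/C rests on P/C replicate 1. It was -0.31 (limma adjusted p = 0.542) without that array and -0.79 (limma adjusted p = 0.156) without P/C replicate 3. Against P alone at 24 h, P/C was lower by 0.53 on the log2 scale (SE 0.24, unadjusted p = 0.0458 and adjusted p = 0.242 in limma), and the groups overlapped. Against C alone the difference was -0.43 (limma adjusted p = 0.434). In these comparisons 0.164% and 0.0981% of the filtered probe sets were called, and 0% of all. Ordered by mean, SLC31A1 was highest with P/C at 8 h (6.97 ± 0.26, SD, n = 2) and lowest with P/C at 24 h (6.36 ± 0.34, SD, n = 2), and the 7 groups above the lowest spanned 6.77 to 6.97, with neighbours in that order within the larger of their SDs. The P/C effect at 24 h less that at 8 h was -0.74 (limma adjusted p = 0.510). Over all 6 comparisons with untreated cells, the intervals of SLC31A1 lay within -1.12 and 0.76.

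ATOX1, the chaperone that carries copper from SLC31A1 to the ATPases, had a signal of at least 100 on every array. Its 8 h signals were 7.18 and 7.03 in untreated cells, 7.48 and 7.43 with P, 7.43 and 7.58 with C, and 7.46 and 7.54 with P/C. All 6 treated arrays lay above both untreated arrays. These 3 comparisons share the same 2 untreated arrays, so they are not separate evidence. The log2 differences were 0.35 with P, 0.40 with C and 0.40 with P/C, with unadjusted p of 0.0522, 0.0281 and 0.0295 and adjusted p of 0.831, 1.00 and 0.667 in limma.

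At 24 h ATOX1 had signals of 7.44 and 7.43 in untreated cells, 7.40, 7.41 and 7.74 with P, 8.15, 7.80 and 7.62 with C, and 7.30 and 7.41 with P/C. All C arrays lay above both untreated arrays, P arrays overlapped them, and both P/C arrays lay below. The difference of C from untreated cells was 0.43 (SE 0.15, 95% interval 0.10 to 0.75, unadjusted p = 0.0132 and adjusted p = 0.465 in limma), and 0.28 (limma adjusted p = 0.425) without C replicate 1, its highest array. P and P/C differed from untreated cells by 0.08 and -0.08. P/C differed from C by -0.50 (SE 0.15, 95% interval -0.83 to -0.18, unadjusted p = 0.00476 and adjusted p = 0.324 in limma), without overlap. That difference was -0.31 (limma adjusted p = 0.480) without C replicate 1 and P/C replicate 1.

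If the differences with P and with C are added, ATOX1 with P/C departed from that sum by -0.59 (unadjusted p = 0.0154 and adjusted p = 0.489 in limma), in a comparison that called 0% of the filtered and of all probe sets. In the order of group means, ATOX1 was highest with C at 24 h (7.86 ± 0.27, SD, n = 3) and lowest in untreated cells at 8 h (7.10 ± 0.11, SD, n = 2). The 6 groups between lay from 7.36 to 7.52, and neighbours among them lay within the larger of their SDs, except P/C just below untreated cells at 24 h. The gaps to the highest and to the lowest group exceeded those SDs. Untreated cells at 24 h were 0.33 above those at 8 h (unadjusted p = 0.0641 and adjusted p = 1.00 in limma), in a comparison with 0.0981% of the filtered and 0.009% of all probe sets called. Against untreated cells, all ATOX1 intervals lay within -0.43 and 0.75, so differences of 1 in either direction lay outside them.

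The copper ATPases gave no level that could be compared. For ATP7A, the intervals describe a signal at or near background and are not read as sizes. Its 205197_s_at signals were 3.03 and 2.88 in untreated cells, 3.16 and 3.13 with P, 2.75 and 2.89 with C and 2.80 and 2.88 with P/C at 8 h. At 24 h they were 2.85 and 2.79 in untreated cells, 2.55, 2.66 and 3.17 with P, 2.79, 3.07 and 2.84 with C, and 2.94 and 2.83 with P/C. Both arrays below the limit were of P at 24 h, and the third array of that group was the highest of all 18. ATP7B and SLC31A2 stayed below the limit in every group, as the plot of all 12 probe sets shows.

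**Figure D3:**
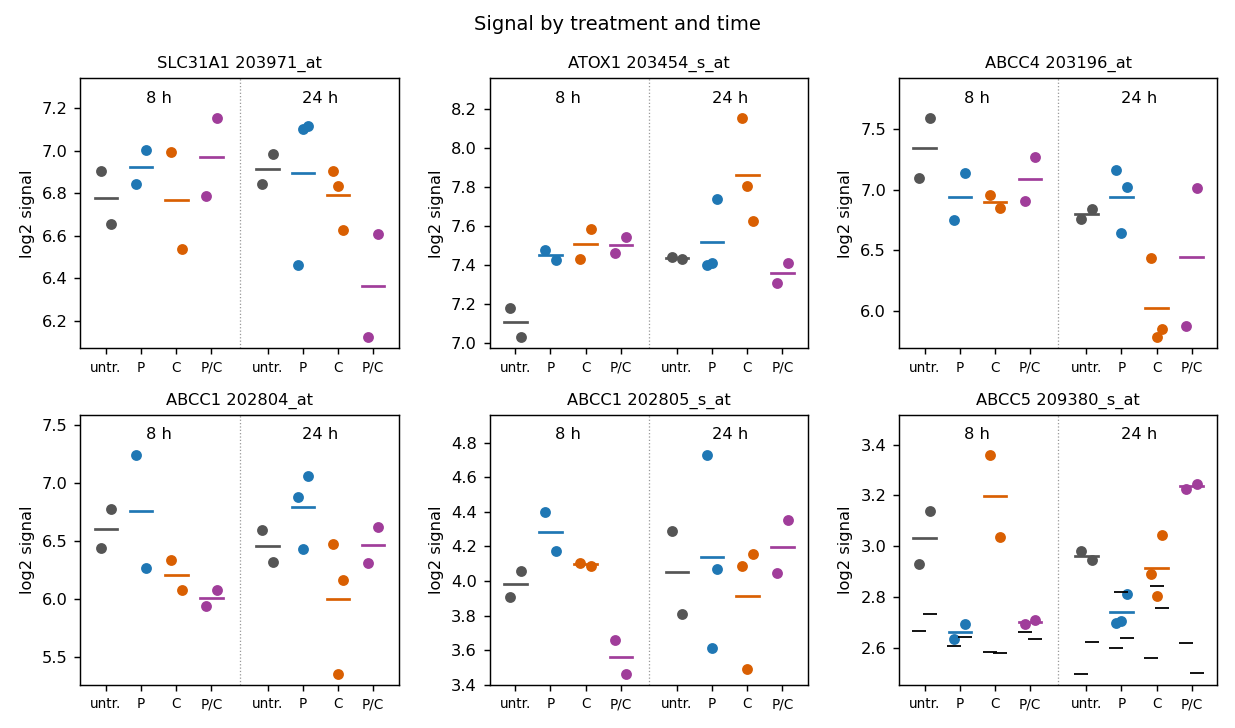
Log2 signal on each array (points) and group means (bars) for SLC31A1, ATOX1, ABCC4, both probe sets of ABCC1, and ABCC5, by treatment at 8 h and 24 h; each panel has its own y axis. In the ABCC5 panel black dashes give each array's background limit, and ABCC4 with C at 24 h (5.78 to 6.44) lies below untreated cells of that time (6.76 and 6.84).

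ABCC4 had the largest difference from untreated cells of any member. At 24 h its signals were 6.76 and 6.84 in untreated cells, 7.16, 6.65 and 7.02 with P, 6.44, 5.78 and 5.85 with C, and 5.87 and 7.02 with P/C. All C arrays lay below both untreated arrays and all P arrays, and the P/C arrays lay 1 on each side of the untreated pair. The difference of C from untreated cells was -0.78 (SE 0.31, 95% interval -1.43 to -0.12, a fold of 0.584, unadjusted p = 0.0227 and adjusted p = 0.305 in limma). Unadjusted p values under 0.05 came from 13.8% of the filtered probe sets in this comparison. With P/C the difference was -0.36 (limma adjusted p = 0.505) and with P 0.14.

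The ABCC4 values at 24 h changed with the arrays that lay nearest to another group. C replicate 1 was the highest of the C arrays for ABCC4, and without it the difference with C was -0.98 (limma adjusted p = 0.0885). Without untreated replicate 1 it was -0.82 (limma adjusted p = 0.422) and without C replicate 3 -0.69 (limma adjusted p = 0.673). Without C replicate 1 and P/C replicate 1 it was -0.98 (limma adjusted p = 0.0250), and with weights estimated for each array it was -0.91 (limma adjusted p = 0.0328). Both values passed the p threshold and fell short of the limit of 1. Without C replicate 1 the number of probe sets called over the filtered set with C at 24 h went from 0 to 118. With array weights it was 134.

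The P/C arrays of ABCC4 differed from each other by more than any comparison of group means at 24 h. The direction of each P/C difference changed with the P/C array left out. From untreated cells it was -0.93 (limma adjusted p = 0.135) without P/C replicate 3 and 0.22 (limma adjusted p = 0.690) without P/C replicate 1. Against P, it was -0.50 (limma adjusted p = 0.379) with all arrays, 0.073 (limma adjusted p = 0.973) without P/C replicate 1 and -1.07 (limma adjusted p = 0.0367, called) without P/C replicate 3. Without that array the calls over the 3057 filtered probe sets in this comparison went from 5 to 296.

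Against C, the P/C difference of ABCC4 was 0.42 (limma adjusted p = 0.542) with all arrays, 0.99 (limma adjusted p = 0.0643) without P/C replicate 1 and -0.15 (limma adjusted p = 0.920) without P/C replicate 3. It was 1.20 (limma adjusted p = 0.0232, called) without both C replicate 1 and P/C replicate 1. With both left out the calls over the filtered probe sets went from 3 to 259.

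At 8 h the ABCC4 signals were 7.10 and 7.59 in untreated cells, 6.75 and 7.13 with P, 6.95 and 6.85 with C, and 6.91 and 7.27 with P/C. Both C arrays lay below both untreated arrays, and the differences were -0.40 with P, -0.44 with C and -0.26 with P/C. The order of group means ran from untreated cells at 8 h (7.34 ± 0.35, SD, n = 2) to C at 24 h (6.02 ± 0.36, SD, n = 3). Between them, P/C and P and C at 8 h and P and untreated cells at 24 h lay from 6.80 to 7.09, and P/C at 24 h had 6.44 ± 0.81 (SD, n = 2). Neighbours in this order lay within the larger of their SDs, except C at 8 h just above untreated cells at 24 h. Untreated cells at 24 h were 0.55 below those at 8 h without overlap (limma adjusted p = 0.862). Against untreated cells the intervals lay within -1.43 and 0.80.

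ABCC1 was read by 2 probe sets, and their differences from untreated cells had the same sign in 5 of 6 comparisons. They disagreed with C at 8 h, where 202804_at differed by -0.40 and 202805_s_at by 0.11. At 8 h, 202804_at had signals of 6.43 and 6.77 in untreated cells, 7.24 and 6.27 with P, 6.33 and 6.08 with C, and 5.94 and 6.08 with P/C. Both probe sets were lower with P/C than in untreated cells on every array, by 0.60 (limma adjusted p = 0.911) and by 0.42 (limma adjusted p = 0.974). Non-overlap in this direction was found for 17.1% of all probe sets.

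At 24 h, 202804_at of ABCC1 had signals of 6.59 and 6.31 in untreated cells, 6.88, 6.43 and 7.06 with P, 6.47, 5.35 and 6.16 with C, and 6.30 and 6.62 with P/C. The groups overlapped, and C differed from untreated cells by -0.46 (limma adjusted p = 0.799). C replicate 2 was the lowest of all 18 arrays. The group means ran from 6.79 ± 0.33 (SD, n = 3) with P to 5.99 ± 0.58 (SD, n = 3) with C, both at 24 h. For 202805_s_at the difference with C was -0.14. The intervals against untreated cells lay within -1.35 and 1.02 for 202804_at and within -1.07 and 0.96 for 202805_s_at, so changes of about 2-fold lay inside some of them.

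ABCC5 had the smallest adjusted p of the 156 tests over all 13 comparisons, and its signal was near the background limit. At 8 h it had 2.93 and 3.14 in untreated cells, 2.63 and 2.69 with P, 3.36 and 3.04 with C, and 2.69 and 2.71 with P/C. All 4 arrays with piroxicam in the medium lay below both untreated arrays and 0.03 to 0.07 over their own background limits. The differences were -0.37 with P and -0.33 with P/C (unadjusted p = 0.0127 and 0.0227, adjusted p = 0.564 and 0.619 in limma). Both comparisons share the same untreated arrays, so they are not separate evidence.

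At 24 h ABCC5 had 2.98 and 2.94 in untreated cells, 2.70, 2.71 and 2.81 with P, 2.89, 2.80 and 3.04 with C, and 3.22 and 3.25 with P/C. Both P/C arrays lay above all others of that time, at 0.61 and 0.75 over their background limits. P/C differed from P by 0.50 (SE 0.12, unadjusted p = 0.000938 and adjusted p = 0.0928 in limma) and from C by 0.32 (limma adjusted p = 0.422). Without P/C replicate 1 the difference from P was 0.51 (limma adjusted p = 0.500). The P/C effect at 24 h less that at 8 h was 0.60 (limma adjusted p = 0.584), in a comparison with 0.0654% of the filtered and 0% of all probe sets called. Signals this near to background may not scale with the amount of RNA, which was not tested, so these differences are not read as sizes. ABCC3 was at background throughout.

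Other genes that handle copper or platinum were read from 3 lists, chosen, like the members, with earlier results of these data known. The list of other copper genes held 28 genes, of which 24 had a probe set and 18 stood above the background limit on every array. Of these genes 7 passed the filter (APP, COX11, CUTA, DLAT, PAM, PRNP and STEAP1, with 9 probe sets), and none of the 9 was called in any of the 13 comparisons. At most 14.6% of the filtered probe sets were called in any comparison, so the lack of a call is no result about these genes. The median log2 difference of the 9 was -0.20 with P, -0.51 with C and -0.56 with P/C at 24 h. Over all filtered probe sets it was -0.22, -0.10 and -0.12. Whether the lower medians with C and P/C set these genes apart was not tested. GLRX, a glutaredoxin that also binds copper, did not pass the filter. In the fit of all probe sets, its probe set 209276_s_at was lower by 1.07 with P at 24 h (limma adjusted p = 0.0409). That probe set had signals of 5.01 and 5.62 in untreated cells and 4.71, 3.66 and 4.36 with P. The second probe set of GLRX (4.63 to 5.86) was above the limit on all 18 arrays and was called in no comparison. With P at 24 h, 3.52% of all probe sets were called, so this call is no result about the list.

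Metallothioneins are small cysteine-rich proteins that bind zinc, copper and platinum. Of 7 listed, 6 stood above the limit on every array, and 4 probe sets of MT1H, MT1X and MT2A were tested. Both probe sets of MT1X rose with P at 24 h. MT1X (204326_x_at) had signals of 6.30 and 6.86 in untreated cells, 9.04, 8.06 and 8.72 with P, 6.52, 7.11 and 5.75 with C, and 4.52 and 7.99 with P/C. The P arrays lay above all untreated and C arrays, and the P/C arrays lay apart, 1 below and 1 above the untreated pair. The difference with P was 2.02 (SE 0.68, limma adjusted p = 0.0379), and for 208581_x_at it was 1.45 (SE 0.49, limma adjusted p = 0.0385).

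MT1H and MT2A differed by 1.15 (limma adjusted p = 0.0611) and 1.00 (limma adjusted p = 0.0599) with P at 24 h and were not called. None of the 4 was called with C or P/C, where MT1X (204326_x_at) differed by -0.12 and -0.32. The calls of MT1X do not hold in every setting. Of 28 other settings, 204326_x_at was called in 22 and 208581_x_at in 21, and most of the losses are given here. Without untreated replicate 1 at 24 h the adjusted p in limma was 0.174 and 0.246, and in the fit of all probe sets it was 0.136 and 0.128. Both calls were also lost at 24 h without untreated replicate 2 (limma adjusted p = 0.112 and 0.0717), P replicate 1 (0.096 and 0.0768) or P replicate 3 (0.0892 and 0.0974), and that of 208581_x_at without P replicate 2 (0.0581). The suffix of these probe sets marks that they may bind transcripts of several family members, so the values are of the family as much as of MT1X.

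Of 15 listed genes for other carriers that have been linked to platinum uptake or export, 9 had a probe set. With at least 1 probe set, ABCC10, ATP11B, ATP1B1, LRRC8D and SLC47A1 stood above the limit on every array. ABCB1, ABCC2 and SLC22A2 did so on no array, and ABCG2 on 5. ATP1B1 (201243_s_at), the beta subunit of the sodium pump, fell with P at 24 h. Its signals were 7.63 and 8.03 in untreated cells, 6.69, 6.92 and 6.63 with P, 7.64, 7.76 and 8.06 with C, and 7.24 and 6.50 with P/C. All P and P/C arrays lay below both untreated arrays, and the C arrays overlapped them.

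The difference of ATP1B1 with P was -1.08 (SE 0.23, limma adjusted p = 0.00361), and with P/C it was -0.96 (limma adjusted p = 0.0304), short of the limit of 1. Without untreated replicate 2 the difference with P was -0.89 (limma adjusted p = 0.0689), and after quantile normalization it was -0.90, so neither was called. Its other tested probe set differed by -1.07 with P (limma adjusted p = 0.147). LRRC8D, a subunit of the volume-regulated anion channel through which platinum compounds can enter cells, differed by 0.78 with P at 24 h (limma adjusted p = 0.146). Of the members and these lists together, the calls against untreated cells in the filtered fit were thus those of MT1X and ATP1B1, all with P at 24 h. In that comparison 14.6% of the filtered probe sets were called, so the number of these calls is no result about the lists.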

How the data were processed

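RNA of MSTO-211H cells was hybridised to 18 HGU133A arrays. Arrays with outlying intensities had been dropped by the authors, who deposited log2 signals from GCRMA (version not given), which corrects background and normalizes between arrays. After this correction dim probe sets may have no usable scale. With no counts, the number of arrays limits precision.

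Groups came from the labels. Each group had its own mean in limma 3.58.1 (R 4.3.3), with no covariates. It was fitted on the 3057 probe sets that passed the study's filter thresholds here (68 controls left out) and on all 22215. The paper reports a larger filtered set. P values were two-sided and adjusted by Benjamini-Hochberg within each of 13 comparisons. All member probe sets were described, and of the other lists those called. Genes with a like pattern were to be named for called members, so none were. Members and lists were chosen with earlier results of these data known. From the data alone, same-numbered arrays deviated together at 8 h (correlations 0.20 to 0.66). At 24 h the correlations had either sign, from -0.22 (C with P/C, replicate 1) to 0.39 (untreated cells with P, replicate 1). Filters, scaling, array weights, a replicate block and left-out arrays were alternatives. The fit was tested on simulated data.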

Additional observations from a re-analysis of the deposited data

How the results depend on the processing

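Of 369 counts recomputed with 29 other settings, 366 were equal to the value given or within 1.5 times of it. Nearly all were counts of called members, which were 0 in the main fit of each of the 13 comparisons. With few probe sets called in most comparisons, a count of 0 had little room to move, so this is no measure of stability. Of 29 log2 differences of members recomputed (those with an unadjusted p under 0.05, or of 0.3 or more where the signal was above background), 26 kept their sign in every setting run. The other 3 were those of ABCC4 with P/C at 24 h. Without P/C replicate 1, alone or with C replicate 1, the difference was 0.22 from untreated cells and 0.073 from P, and without P/C replicate 3 it was -0.15 from C. Leaving out 1 array at a time, the 3 ranged from -0.93 to 0.22 against untreated cells, from -1.07 to 0.073 against P and from -0.15 to 0.99 against C. Leaving out 1 array at a time, the number of members called ranged from 0 to 1, the 1 being ABCC4 for P/C against P without P/C replicate 3, where calls over the filtered probe sets went from 5 to 296. Without C replicate 1 and P/C replicate 1 at 24 h, 1 member (ABCC4) was called for P/C against C, where they went from 3 to 259. With a signal of 100 as the limit for presence, 1 probe set was above it in all groups in place of 5. With the replicate block, over all arrays or the 8 h arrays alone, 0 members were called, while the block on the 8 h arrays alone raised the calls over the filtered probe sets from 15 to 72 with P and from 19 to 92 with P/C at 8 h. Leaving out P/C replicate 1 raised them from 3 to 190 for P/C against C. The causes were not tested. With 2 or 3 arrays per group, differences of 2-fold lay inside several intervals of SLC31A1, ABCC1 and ABCC4, and 7 of the 12 probe sets were at or near background.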
